A study of Mus musculus with 3 samples.

Results

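Of the 18193 genes named on the arrays, 9 are followed here because they belong to the feedback that restrains or routes signals from the tumour necrosis factor (TNF) and Toll-like receptors to NF-kB: Tnfaip2, Tnfaip3, Tnip1, Traf1, Traf2, Birc2, Birc3, Zc3h12a and Cyld. They were listed by name for their role, with earlier results of these data known, and every probe set that carries 1 of these symbols alone was taken, 18 of the 45101 on the array. All 9 genes were among the 11138 that could be compared, and the probe set standing for each lay above the intensity floor used here on all 3 arrays, as did 14 of the 18. CT26.WT is an established mouse colon carcinoma line. Its cells were kept without serum for 12 h, and then recombinant mouse S100a8 or S100a9 protein was added at 4 µg/ml for 24 h. The control was labelled once as treated with BSA and elsewhere as given saline, and no exposure time is stated for it. The labels give no other difference between the 3 groups, each a single culture on 1 Affymetrix Mouse Genome 430 2.0 array, so no difference below has a replicate, an error or a test.

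NF-kB is a family of transcription factors held in the cytoplasm by IkB proteins. Ligand binding to a TNF or Toll-like receptor builds a platform of ubiquitin chains, on which kinases are switched on that mark IkB for destruction. Ubiquitin ligases such as Traf2, Birc2 and Birc3 write these chains, while Tnfaip3 (A20) and Cyld edit or remove them, and Zc3h12a (Regnase-1) cuts inflammatory messenger RNAs. Several of these brakes are themselves NF-kB target genes, which closes a negative feedback loop. S100a8 and S100a9, released by myeloid cells, are described ligands of the Toll-like receptor Tlr4.

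Values are the deposited MAS5 signals, on a linear scale and in arbitrary units. A gene was compared when the mean log2 signal of its brightest probe set lay above a floor of 76.0, the median of all signals. On the log2 scale a ratio of 0 is no difference and negative ratios are lower signals. The array medians were 78.7 (S100a8), 73.8 (S100a9) and 76.3 (control), and the 24 poly-A spike-ins, bacterial RNAs added before labelling, were themselves above control, with a median log2 ratio of 0.12 (SD 0.12) on the S100a8 array and 0.28 (SD 0.10) on the S100a9 array. All 4 mesenchymal markers were bright, with Vim between 15407 and 16033 and the summed signal of the list between 38170 and 38865. Of 6 epithelial markers, Epcam and Krt18 lay above the floor, with Krt18 at 1032 (S100a8), 1236 (S100a9) and 1447 (control), while Cdh1, the epithelial cadherin, had 42.6, 40.4 and 39.7. Of 5 intestinal markers, only Cdx2 passed the floor. Of 6 myeloid markers 3 passed it, with median log2 ratios against control of 0.47 (S100a8) and 0.23 (S100a9). Cd68 read 422, 396 and 273 on the S100a8, S100a9 and control array, Csf1r 370, 313 and 267, and Cd14 1075, 1418 and 1413. The summed signal of the 6, mostly that of Cd14, was 1993, 2231 and 2054. The pan-leukocyte gene Ptprc had 44.9, 35.9 and 32.0. All 3 measured lymphoid markers passed the floor (summed signal 1051, 855 and 911), and 1 of 3 endothelial markers did. Any part of this in the results below was not tested.

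Among the members, 4 genes were at least 1.5-fold lower than control with both proteins. These were Tnfaip3, which edits ubiquitin chains, Birc3, a ubiquitin ligase of the inhibitor of apoptosis family, Traf1, an adaptor of TNF receptors, and Zc3h12a, an RNase. With S100a8 their signals were 1.84-fold to 2.23-fold below control, and with S100a9 1.69-fold to 2.04-fold. Cyld, Birc2, Traf2 and Tnfaip2 were at most 1.30-fold below control on the probe sets that stand for them. For Birc3 a second probe set went the other way.

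Counted over the set, all 9 genes were below control with S100a8 (47.5% of all compared genes were), 4 of them by at least 1.5-fold (1.91% of all) and Tnfaip3 and Birc3 by at least 2-fold (0.287%). With S100a9 all 9 were again below control (48.1% of all compared genes), although Birc2 and Cyld were at 0.01 and 0.03 on the log2 scale after median centring and Cyld was above control in the mean of its probe sets. The same 4 genes were at least 1.5-fold lower with S100a9 (0.853% of all), and Tnfaip3 at least 2-fold (0.144%). None of the 9 was at least 1.5-fold higher with S100a8 (1.13% of all) or with S100a9 (0.251%). The median log2 ratio of the members was -0.58 with S100a8 and -0.28 with S100a9, against 0.01 and 0.005 over all compared genes. Both comparisons use the same control array, so a control signal that happened to be high would lower both ratios of a gene. In RNA from whole cultures, fewer cells carrying a transcript and less of it per cell cannot be told apart.

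**Figure D1:**
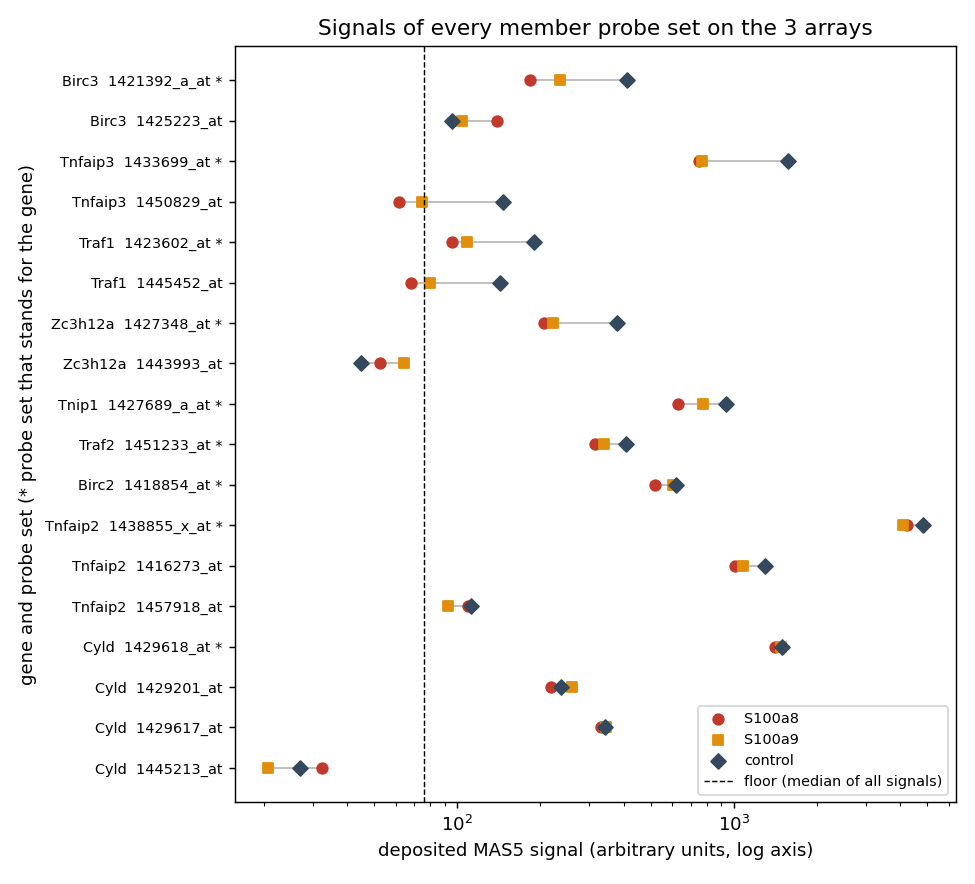
Deposited MAS5 signal (x axis, log scale, arbitrary units) of each of the 18 probe sets of the 9 genes (rows) on the S100a8, S100a9 and control arrays; the dashed line is the floor of 76.0 and an asterisk marks the probe set that stands for its gene. Tnfaip3, Traf1 and the first probe set of Birc3 and of Zc3h12a show the control array to the right of both protein arrays. The points of Cyld lie close together on its probe sets above the floor.

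The promoter sequences show where letters of the kB consensus, the sequence that NF-kB dimers bind, lie before listed starts of these genes. RefSeq promoter windows (build GRCm38.p6) were available for all 9, and the 250 bases before each listed start were searched on both strands. Matches to the consensus were found for Tnfaip3, Tnip1, Cyld and Tnfaip2, that is 4 of 9 genes, against 8.23% of all 27025 genes with such a window and 10.6% of the compared genes among them. The sequences of these 4 genes are given 5′ to 3′ on the strand of the gene, with the matching letters in capitals, because they include 1 gene that was at least 1.5-fold lower with each protein and 3 that were not. For Tnfaip3 the whole searched window is shown (chr10:19015411-19015660, minus strand), and for the others 60 bases around the match (Tnip1 chr11:54962963-54963022, minus strand; Cyld chr8:88696848-88696907, plus strand; Tnfaip2 chr12:111442601-111442660, plus strand).
Tnfaip3: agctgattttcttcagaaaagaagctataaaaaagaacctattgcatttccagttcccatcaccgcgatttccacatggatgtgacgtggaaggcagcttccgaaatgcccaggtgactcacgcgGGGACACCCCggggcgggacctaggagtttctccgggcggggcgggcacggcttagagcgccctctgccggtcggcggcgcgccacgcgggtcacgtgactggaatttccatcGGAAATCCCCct
Tnip1: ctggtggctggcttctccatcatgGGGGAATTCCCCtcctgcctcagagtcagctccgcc
Cyld: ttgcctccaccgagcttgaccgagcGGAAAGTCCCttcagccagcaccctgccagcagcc
Tnfaip2: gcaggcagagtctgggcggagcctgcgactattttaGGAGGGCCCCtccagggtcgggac

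In Tnfaip3 a match on the strand opposite to the gene ended 3 bases before the start, and a further one, matching on both strands, lay 125 to 116 bases before it. A second listed Tnfaip3 start, further inside the gene, had no match. In Tnip1 3 overlapping matches spanned 58 to 47 bases before the start. Cyld had 1 match 155 to 146 bases before its listed start, and Tnfaip2 had 1 at 24 to 15 bases. The RefSeq loci of both genes begin upstream of these starts, at 88696878 for Cyld and 111442450 for Tnfaip2. The Tnfaip2 match thus lies inside its locus, and the Cyld match overlaps the start of its locus. Birc3, Traf1, Zc3h12a, Traf2 and both windows of Birc2 held none, which says only that these letters are not in those windows. Of the 4 genes with a match, Tnfaip3 was at least 1.5-fold lower with both proteins, Tnip1 was 1.49-fold lower with S100a8, and Tnfaip2 and Cyld were nearer to control. Of the 5 without one, Birc3, Traf1 and Zc3h12a were at least 1.5-fold lower with both proteins, Birc3 only on its brighter probe set. Traf2 and Birc2 were so with neither protein. At least 1.5-fold lower were 1.91% of all compared genes with S100a8 and 0.853% with S100a9.

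Tnfaip3 encodes A20, which carries a deubiquitinase domain and zinc fingers and restrains signalling from the TNF receptor and Toll-like receptors. Its main probe set read 749 with S100a8, 769 with S100a9 and 1566 on the control array. Both protein arrays were thus nearly equal to each other and at about the same distance below control. The signal was 2.09-fold lower with S100a8 and 2.04-fold lower with S100a9, and only 24 and 14 of the 11138 compared genes had lower ratios. The second, dimmer probe set read 61.7, 74.5 and 147, so that only the control lay above the floor. By the floor it was at least 1.93-fold lower with either protein. Under the alternative settings the log2 ratio of Tnfaip3 ran from -1.11 to -1.01 for S100a8 and from -1.03 to -0.98 for S100a9.

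Tnip1 encodes ABIN-1, which binds ubiquitin chains and recruits A20 to its substrates. Its single probe set read 629 with S100a8, 775 with S100a9 and 939 on the control array, so the S100a9 array lay between the others. The log2 ratio was -0.58 for S100a8, a 1.49-fold difference that falls just short of the 1.5-fold size, and -0.28 for S100a9. With median centring the S100a8 ratio was -0.62, past that size.

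Cyld removes lysine-63-linked and linear ubiquitin chains and is best known as a tumour suppressor. Its brightest probe set read 1406 with S100a8, 1481 with S100a9 and 1496 on the control array. These are nearly equal signals, with log2 ratios of -0.09 and -0.01. A further probe set read 331, 344 and 341, and another read 219, 261 and 237. The latter had log2 ratios of -0.12 for S100a8 and 0.14 for S100a9, and the last probe set of Cyld lay below the floor on all 3 arrays. The 2 deubiquitinases of the set therefore differed, with Tnfaip3 2.09-fold and 2.04-fold below control and Cyld near it.

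Birc2 and Birc3 encode cIAP1 and cIAP2, closely related ubiquitin ligases that are brought to TNF receptors by Traf2 and also keep the non-canonical NF-kB pathway switched off. Birc2 had a single probe set, with 517 for S100a8, 603 for S100a9 and 619 for the control. It was 1.20-fold lower with S100a8 and within 1.03-fold of control with S100a9.

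For Birc3 the 2 probe sets disagreed. The brighter one, of the kind designed to read several transcripts of 1 gene, read 184 with S100a8, 235 with S100a9 and 410 on the control array. It was thus 2.23-fold and 1.74-fold lower, and 20 and 29 compared genes had lower ratios. The other probe set read 139, 104 and 95.6, with the S100a8 array highest and the control lowest. Its log2 ratios were 0.54 and 0.13 in place of -1.16 and -0.80. The value given for Birc3 therefore holds for 1 of its probe sets, and which of the 2 follows the gene's messenger RNA was not tested.

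Traf1 and Traf2 are adaptors of the TNF receptor family. Traf2 carries a RING domain and is present in most cells, whereas Traf1 lacks a RING domain and is a known NF-kB target. Both probe sets of Traf1 were dim and moved alike. The first read 95.9 with S100a8, 109 with S100a9 and 189 on the control array, and it was 1.97-fold and 1.74-fold lower. The second read 67.8, 79.7 and 143, which made it at least 1.89-fold lower with S100a8 and 1.80-fold lower with S100a9. Compared genes were cut by brightness into 4 groups of equal size. Traf1 lay in the dimmest of them, whose median log2 ratio against control was 0.14 (SD 0.30) with S100a8 and 0.00 (SD 0.21) with S100a9. In that group 1.97% of genes were at least 1.5-fold lower with S100a8 and 1.15% with S100a9. The part of dimness in the ratios of Traf1 was not tested. The single probe set of Traf2 read 314, 338 and 408, with both proteins below control by 1.30-fold and 1.21-fold. Against the 1.5-fold size Traf1 passed with each protein and Traf2 with neither.

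Zc3h12a encodes Regnase-1, an endoribonuclease that degrades Il6 and other inflammatory transcripts. Its main probe set read 205 with S100a8, 223 with S100a9 and 377 on the control array. It was 1.84-fold lower with S100a8 and 1.69-fold lower with S100a9, and 55 and 38 compared genes had lower ratios. The second probe set lay below the floor on all 3 arrays (52.8, 64.3 and 45.0) and gave no ratio.

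Tnfaip2, which shapes membrane protrusions, is neither a ubiquitin enzyme nor an RNase and belongs to the set as a TNF-induced gene. Its brightest probe set, of a kind that can also bind related transcripts, read 4220 with S100a8, 4083 with S100a9 and 4822 on the control array. A second one read 1008, 1083 and 1300, and the third 109, 92.6 and 112. All 3 probe sets lay below control on both protein arrays, by 1.02-fold to 1.29-fold with S100a8 and by 1.18-fold to 1.21-fold with S100a9. None came near the size of Tnfaip3.

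**Figure D2:**
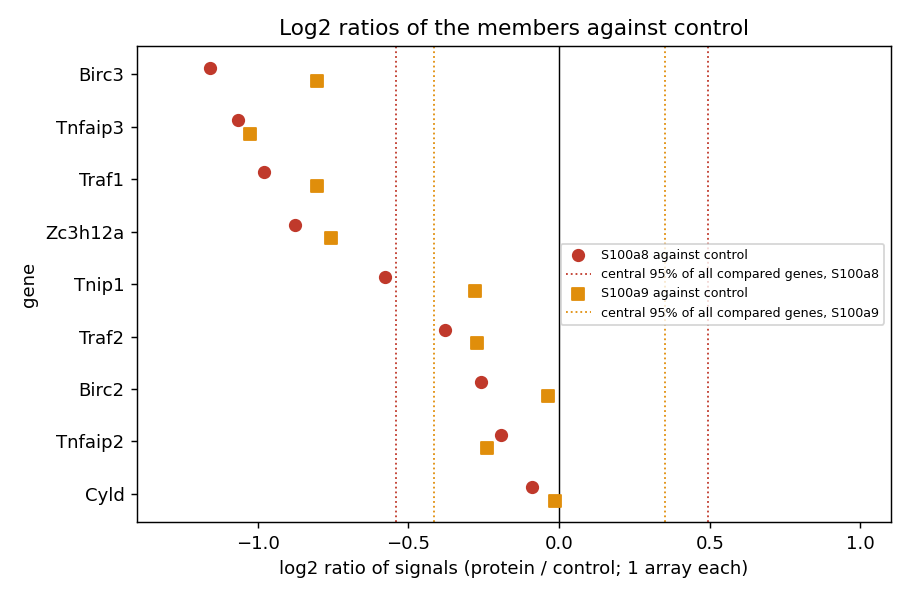
Log2 ratio of signals (x axis) against control for each of the 9 genes (rows), with circles for S100a8 and squares for S100a9, 1 array each; dotted lines bound the central 95% of the ratios of all 11138 compared genes in the same comparison. Birc3, Tnfaip3, Traf1 and Zc3h12a lie left of those bounds with both proteins, Tnip1 with S100a8, and Traf2, Birc2, Tnfaip2 and Cyld inside them.

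The ratios of all compared genes show how widely genes differed between the same pairs of arrays. They do not measure how a gene varies between cultures. The central 95% ran from -0.54 to 0.49 for S100a8 against control and from -0.41 to 0.35 for S100a9. The spread depended on brightness. In the brightness group with mean signals from 182 to 460, which holds Birc3, Zc3h12a and Traf2, 2.95% of genes were at least 1.5-fold lower with S100a8 and 1.08% with S100a9. In the next one, from 460 to 1109, with Tnfaip3, Tnip1 and Birc2, the shares were 1.87% and 0.826%.

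**Figure D3:**
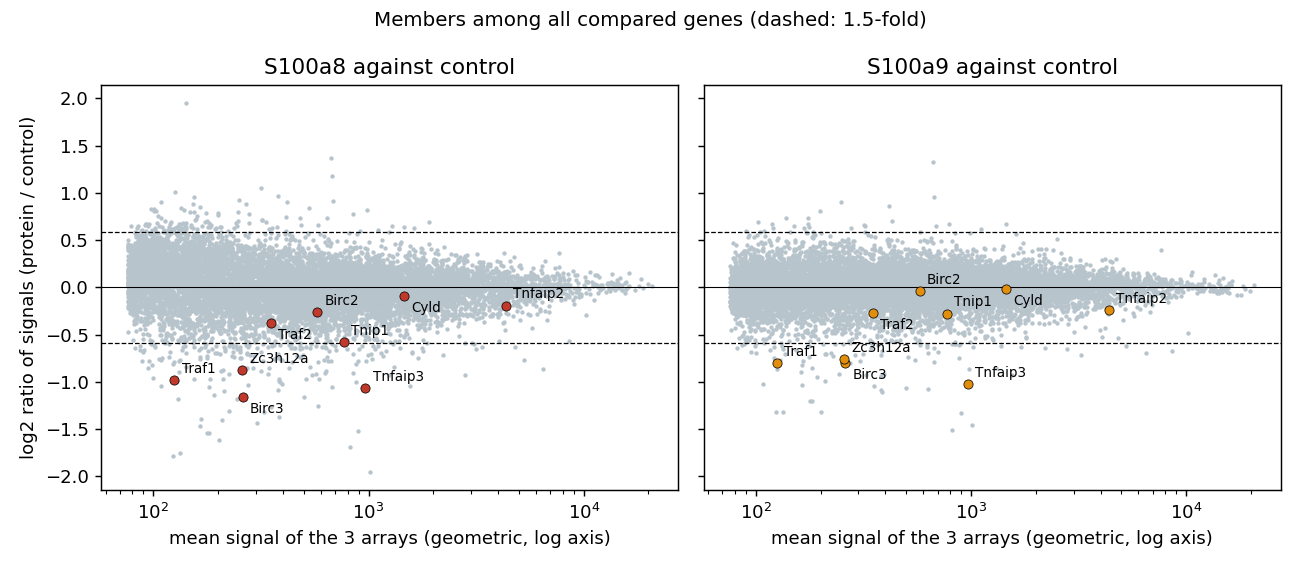
Log2 ratio against control (y axis) by mean signal of the 3 arrays (x axis, log scale) for all 11138 compared genes in grey, with the 9 genes coloured and named; left S100a8, right S100a9, and dashed lines at 1.5-fold. Tnfaip3, Birc3, Traf1 and Zc3h12a lie below the lower dashed line in both panels and Cyld near 0.

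Set against each other, the 2 proteins differed by less than 1.5-fold for each of these genes. With S100a9, 8 of the 9 were higher than with S100a8, the exception being Tnfaip2, while 54.9% of all compared genes were. The median log2 ratio of S100a9 over S100a8 was 0.12, against 0.02 over all compared genes and 0.19 (SD 0.16) for the poly-A spike-ins. The widest differences were those of Birc3 (0.35 on its brighter probe set, -0.41 on the other), Tnip1 (0.30) and Birc2 (0.22), and Tnfaip3 was at 0.04. None of the 9 passed the 1.5-fold size in either direction, where 1.01% of all compared genes were lower and 0.0988% higher. Without replicates it is not known whether a difference of this size exceeds the variation between cultures.

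Most compared genes of the machinery upstream of these brakes had RNA signals near control. Of 24 listed genes of the TNF receptor complex and the kinases that depend on ubiquitin, 20 were compared. Ripk1, Traf3, Chuk and Map3k14 were not, so nothing is said here of these genes. None reached 1.5-fold in either direction with either protein. Few of all compared genes did, 1.91% lower and 1.13% higher with S100a8, and 0.853% lower and 0.251% higher with S100a9. The median log2 ratio of this list was -0.01 with S100a8 and -0.03 with S100a9. Tnfrsf1a, the main TNF receptor, read 1398 with S100a8, 1515 with S100a9 and 1391 on the control array. The highest ratios were those of Traf5, an adaptor (0.40 with S100a8, with -0.26 on its other probe set), and Ikbkg, the scaffold of the IkB kinase (0.28 with S100a9). The lowest were those of Ikbke, a kinase (-0.42 with S100a9), and the second TNF receptor Tnfrsf1b (-0.33 with S100a8, with -0.003 on its other probe set). Tlr4 read 365, 404 and 380. Tnf, the ligand itself, was close to the floor at 78.9, 76.0 and 57.9.

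Most other deubiquitinases and partners of A20 were near control. Of 20 listed, 18 were compared, with medians of -0.04 (S100a8) and 0.01 (S100a9). Usp18, which strips the ubiquitin-like protein ISG15 and is an interferon-induced gene, was the single one at least 1.5-fold lower with S100a8 (1.91% of all). With S100a9 none was (0.853% of all compared genes). Usp18 read 423 for S100a8, 587 for S100a9 and 827 for the control, with log2 ratios of -0.97 and -0.49. Tnip2, the ABIN-2 relative of Tnip1, had log2 ratios of -0.48 and -0.27. At the other end stood N4bp1, an RNase and ubiquitin binder (-0.02 and 0.23), and the deubiquitinase Usp4 (0.20 and 0.19).

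Among 12 compared regulators of inflammatory messenger RNA decay, 9 were below control with S100a8 (47.5% of all compared genes) and 8 with S100a9 (48.1%). Their medians were -0.09 and -0.14. Arid5a, which protects transcripts against Regnase-1, read 226, 245 and 370, at least 1.5-fold below control with both proteins. Zfp36, tristetraprolin, which binds AU-rich elements and speeds decay, read 160, 205 and 261, with log2 ratios of -0.70 and -0.35. Zfp36l1, its relative, was the third member at least 1.5-fold lower with S100a8 (1.91% of all compared genes were). It was named after its value was seen (-0.60 and -0.23). Zc3h12c, a paralogue of Regnase-1, had 0.18 and 0.04, and the stabilising protein Elavl1 0.16 and 0.15, although 2 of 4 further Elavl1 probe sets with S100a8 and 3 of 4 with S100a9 went the other way.

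Of 11 transcripts described as cut by Regnase-1, 7 were compared. With S100a8 6 of them were below control (47.5% of all compared genes were), 3 by at least 1.5-fold (1.91% of all). With S100a9 6 were below control (48.1% of all), 1 by at least 1.5-fold (0.853% of all). Their medians were -0.21 and -0.26. Cxcl1, a neutrophil attractant, read 5104 with S100a8, 5744 with S100a9 and 9268 on the control array. Rel, an NF-kB subunit, read 98.0, 143 and 167, with log2 ratios of -0.77 and -0.22. Tfrc, the transferrin receptor, was at -0.002 and 0.01 (0.15 to 0.54 on its other probe sets), and Tnfrsf4 (OX40) at 0.20 and -0.16.

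Of these 5 lists the NF-kB subunits and IkB proteins, which share Rel and Nfkbiz with the Regnase-1 targets, had the lowest medians. Of 11 listed, 9 were compared, and Nfkb1 and Bcl3 were not. All 9 were below control with each protein (47.5% of all compared genes with S100a8, 48.1% with S100a9). With S100a8 5 of them were at least 1.5-fold lower (1.91% of all), and with S100a9 4 (0.853% of all). The medians were -0.77 and -0.56. Nfkbie, an IkB protein, had log2 ratios of -1.61 and -1.32, and Relb, a subunit of the non-canonical pathway, read 500, 598 and 1035. With S100a8 the ratios nearest to control were those of Nfkbiz, a nuclear IkB protein (-0.21), and Rela, the main activating subunit (-0.31). With S100a9 they were those of Rela (-0.06) and Rel (-0.22), and Nfkbiz was at -0.38. The other probe sets of Nfkbiz lay between -1.33 and -0.45.

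**Figure D4:**
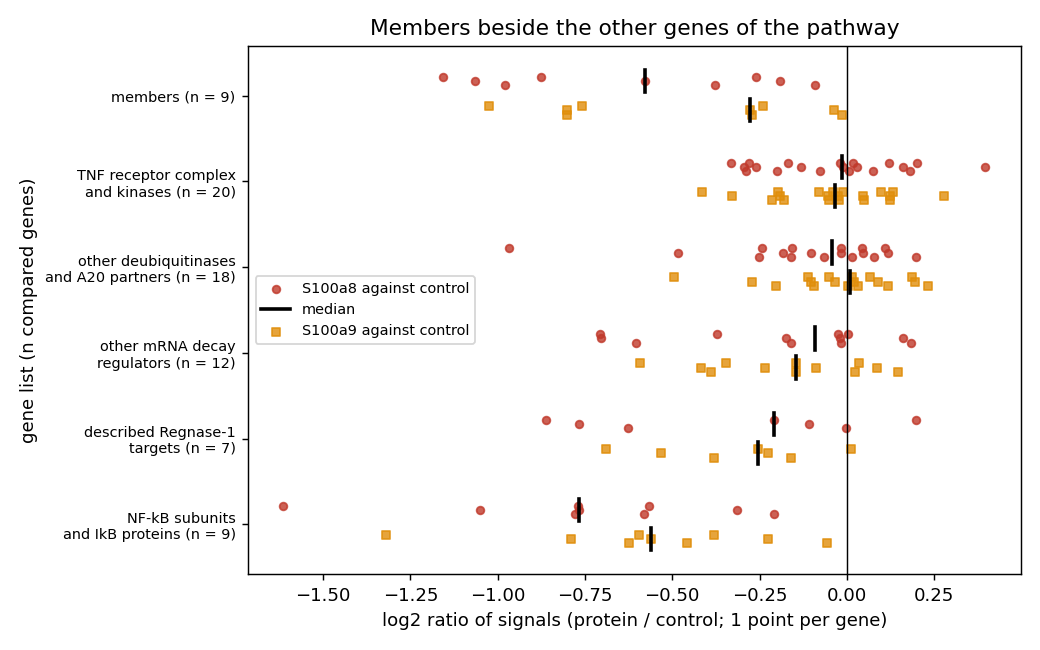
Log2 ratio against control (x axis) of each compared gene, for the 9 members and 5 other lists of pathway genes (rows, with the number of compared genes), circles for S100a8 and squares for S100a9; the black bar is the median. The NF-kB subunits and IkB proteins lie lowest, with medians of -0.77 and -0.56, and the TNF receptor complex and the other deubiquitinases have medians between -0.04 and 0.01.

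The genes whose pair of ratios against control was nearest to that of Tnfaip3, over these 3 arrays and by Euclidean distance in log2 units, were Fendrr, a long non-coding RNA (0.087), Vcam1, an adhesion molecule (0.11), Fubp1, a single-strand DNA binding protein (0.11), Ogn, a matrix proteoglycan (0.11), and the zinc finger gene Zfp950 (0.11). Vcam1 read 1189 with S100a8, 1288 with S100a9 and 2442 on the control array, and its 2 other probe sets above the floor were also lower. Of 3 further Fubp1 probe sets, 1 went the other way with each protein. With 3 arrays many genes can share a pattern, and the distances of these 5 are too close to give an order.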

How the data were processed

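The data are probe set signals of 3 arrays, matched to samples by column name, with 0 columns unmatched. Per the submitters' processing notes, the authors made the deposited intensities with MAS5, which subtracts mismatch signal and scales each array. Its version and its scaling target: not given in the sources used here. Detection calls were not used. With the mismatch subtraction dim signals are noisy, and with the scaling a change in total RNA per cell is hidden. Per the labels' protocols, 1 µg of total RNA per culture went into the biotin labelling.

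Genes were named from the supplied platform annotation, which can be old. It gives 34945 probe sets 1 symbol, 932 several and 9160 other non-control probe sets none. All members matched RefSeq (GRCm38.p6) by Entrez number with 0 symbols changed. With the authors' scaling kept, signals under 76.0 (the 50th percentile of all non-control probe sets) were set to it, log2 was taken, and each gene was represented by the probe set with the highest mean log2 signal and kept for comparison where this mean exceeded the floor. A fold against a floored signal is a lower bound. Sizes of 1.5-fold and 2-fold are descriptive. No test was run, as each group has 1 array, whose number limits the precision. The computation was tested on simulated data. Python 3.11.15, numpy 2.4.6 and pandas 2.3.3 were used.

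All members are named. From each other list the 2 highest and 2 lowest ratios against control are named, with the 5 genes nearest to Tnfaip3. The members and lists were chosen with earlier results of these data known. Alternatives were other scalings, floors, filters, probe set rules and a 2-fold size.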

Additional observations from a re-analysis of the deposited data

How the results depend on the processing

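A median or single-gene log2 ratio was taken as moved when it shifted by more than the SD of the poly-A spike-ins in the same comparison, and a count when it changed by more than 1.5 times. The counts of members at least 1.5-fold lower, 4 with each protein, were 2 and 2 when probe sets were averaged; at 2-fold size they were 2 with S100a8 and 1 with S100a9. The S100a8 median of -0.58 was -0.38 when probe sets were averaged, and -0.38 with Birc3 taken from its other probe set, a setting chosen after seeing the data. That setting also reversed Birc3 itself, to 0.54 with S100a8 and 0.13 with S100a9; the cause was not tested. Of 240 single-gene values over the settings, 231 stayed within the spike-in spread, 7 moved and those 2 reversed. This tally says little about stability. The other floors and the setting without a filter left the ratio of every member still compared unchanged, and the Birc3 setting could change only Birc3. The mean of all probe sets brought Zc3h12a to -0.44 and -0.38, since its second probe set is at the floor throughout. With the floor at the 65th percentile Traf1 was too dim to be compared. For S100a9 over S100a8 the count and median of the members stayed within these limits, but Birc3 turned from 0.35 to -0.03 when probe sets were averaged and to -0.41 on its other probe set. Leaving out an array was not possible because each group has 1, and no paired analysis was possible because the labels give no replicate numbers. Without replicates or detection calls, dim probe sets such as those of Traf1 and the second ones of Birc3, Tnfaip3 and Zc3h12a are the least certain.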
